A study of Rattus norvegicus with 9 samples.

Results

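The miR-344 family is a set of mature miRNAs of the rodent brain that share a name number and closely related hairpins. Its members were taken from the deposited table by name, as every row numbered as miR-344 whatever its letter and arm. This took 6 of 633 listed mature miRNAs: miR-344a-3p (listed as rno-miR-344a-3p), miR-344b-1-3p, miR-344b-3p, miR-344b-5p, miR-344g and miR-344i. The family was selected on a measured value as well, the lower level of miR-344a-3p in MK-801+CLO than in VEH, so all values of that comparison are given as a description without a test.

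The data are small RNA libraries of hippocampus from Sprague-Dawley rats, with 3 libraries in each of 3 groups. VEH rats received saline for 14 and then 7 days. MK-801 rats received the NMDA receptor blocker MK-801 (dizocilpine) intraperitoneally at 0.2 mg/kg a day for 14 days and then saline for 7 days, a course used as a rodent model of schizophrenia. MK-801+CLO rats received that MK-801 course followed by 7 days of the atypical antipsychotic clozapine (CLO) at 10 mg/kg. The labels give postnatal day 21 as the age, and the housing text gives an age of 5 weeks before dosing. They name 10 rats per group and do not say which rat or how many rats a library holds, and the spread that p-values are measured against may thus be technical.

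A miRNA is cut from the hairpin of a longer transcript and guides a silencing complex to messenger RNAs that pair with its seed, here bases 2 to 8 from the 5′ end. The stem's arms give a 5p and a 3p mature form, of which often only one accumulates. MiRNAs with the same seed are grouped together because they can pair with many of the same sites, and a changed base or a shift in the seed changes the sites it fits.

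The mature sequences of all 6 members are shown because their seeds differ more than their names do. They are the deposited table's own, written 5′ to 3′ with T for U and with the seed in capitals.
miR-344a-3p: tGATCTAGccaaagcctgactgt
miR-344b-1-3p: gATATAACcaaagcccgactgt
miR-344b-3p: gGTATAACcaaagcccgactgt
miR-344i: cTCTAGCCagggcttgactgca
miR-344b-5p: aGTCAGGCtgctggttatattc
miR-344g: aGTCAGGCtcctggcaggagtc

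The family thus carried 5 different seeds. Within it, only miR-344b-5p and miR-344g shared one, and outside it 1 listed miRNA carried a member's seed. That was miR-410-3p, a miRNA of the imprinted Dlk1-Dio3 region, which has the seed of miR-344b-1-3p and was picked for that seed, not for its values.
miR-410-3p: aATATAACacagatggcctgt

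MiR-344b-1-3p and miR-344b-3p differed in 1 of 22 bases, A2G counted from the 5′ end of miR-344b-1-3p, which lies in the seed. MiR-344a-3p lined up with miR-344b-1-3p over 22 bases with 3 mismatches at a shift of 1 base, and with miR-344i over 21 bases with 5, shifted by 2 bases. The sources used here do not say how reads that fit several miRNAs were counted. The split of reads between miR-344b-1-3p and miR-344b-3p therefore rests on 1 base and is uncertain.

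In RefSeq (GRCr8, which is not the build named for these data) the table's sequences were found in hairpins on the minus strand of chromosome 1. The sequence of miR-344a-3p lies at chr1:124655048-124655070 in Mir344a-2, that of miR-344b-1-3p at chr1:124035684-124035705 in Mir344b-1, that of miR-344g at chr1:124754989-124755010 in Mir344g and that of miR-344i at chr1:124838130-124838151 in Mir344i. MiR-344b-3p matched 2 hairpins, Mir344b-2 (chr1:124028508-124028529) and Mir344b-3 (chr1:124044539-124044560), and the 2 hairpin sequences are identical. MiR-344b-5p matched 3, those of Mir344b-2, Mir344b-1 and Mir344b-3. The 7 family hairpins span 809.7 kb, and no other annotated miRNA hairpin lies within 1000000 bases of them. The nearest named protein-coding genes are Slc25a19l1, Snurf, Snrpn and Ube3a on one side and Ndn, Magel2, Mkrn3, Peg12 and Potefam2 on the other. Of these, Snurf, Snrpn, Ube3a, Ndn, Magel2, Mkrn3 and Peg12 belong to the imprinted region whose human counterpart is lost in Prader-Willi syndrome, many of them read from the paternal copy alone. Mir344b-2 lies within an annotated long noncoding RNA gene, and whether the hairpins share a transcript was not tested.

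The 4 hairpins of the abundant members and their nearest copies are shown, from RefSeq (GRCr8, 5′ to 3′), with the sequences of listed members in capitals.
Mir344b-1: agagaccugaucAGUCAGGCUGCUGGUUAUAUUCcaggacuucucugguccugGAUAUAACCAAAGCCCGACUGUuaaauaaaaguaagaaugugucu
Mir344b-2: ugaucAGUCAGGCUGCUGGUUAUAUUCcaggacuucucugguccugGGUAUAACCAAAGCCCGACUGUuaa
Mir344a-2: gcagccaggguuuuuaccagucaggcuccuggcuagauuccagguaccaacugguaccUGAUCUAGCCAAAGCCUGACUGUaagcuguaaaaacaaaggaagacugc
Mir344-1: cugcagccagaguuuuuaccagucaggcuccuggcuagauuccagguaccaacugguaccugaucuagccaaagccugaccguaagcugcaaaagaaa

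Mir344-1 has no listed member in capitals because its 3p form in RefSeq, miR-344-3p, differs from miR-344a-3p by T21C, counted from the 5′ end of miR-344a-3p and outside the seed. RefSeq held 5 of the 6 member names, and the table's miR-344a-3p was placed by its sequence. MiR-344-3p, miR-344-5p and miR-344a-5p of RefSeq have no row among the listed miRNAs and so were not analysed here. Whether reads of miR-344-3p, with 1 mismatch, were counted under miR-344a-3p is not known.
miR-344-3p: tGATCTAGccaaagcctgaccgt

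The unit of level is CPM, a count scaled to a common library total. Library totals ran from 10665718 to 18284905 counts, so 1 count is worth 0.0547 to 0.0938 CPM. All 5 neuronal marker miRNAs (miR-124-3p, miR-9a-5p, miR-128-3p, miR-138-5p and miR-132-3p) were present in the labelled hippocampus and summed to 120990 to 148850 CPM. VEH replicate 3 was highest for choroid plexus and ependymal markers, which summed to 10427 CPM there. The VEH libraries ran from 3695 CPM up to that value, and the libraries of the treated groups from 2400 to 4128 CPM. Fold changes, standard errors and p-values come from edgeR's quasi-likelihood test on all 9 libraries, with Benjamini-Hochberg adjustment over 469 tested miRNAs. Of the 6 members 5 had enough counts to be tested, and miR-344g did not.

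Together the 6 members took 0.0196% to 0.0354% of all counts. MiR-344b-1-3p made up 64.1% of the family's counts and miR-344a-3p 32.7%. By mean level over 9 libraries they ranked 151 and 190 of 633 miRNAs, at 174 and 87.1 CPM. The other members ranked 388 (miR-344b-3p, 3.40 CPM), 406 (miR-344b-5p, 2.48 CPM), 415 (miR-344i, 2.23 CPM) and 491 (miR-344g, 0.341 CPM).

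**Figure D1:**
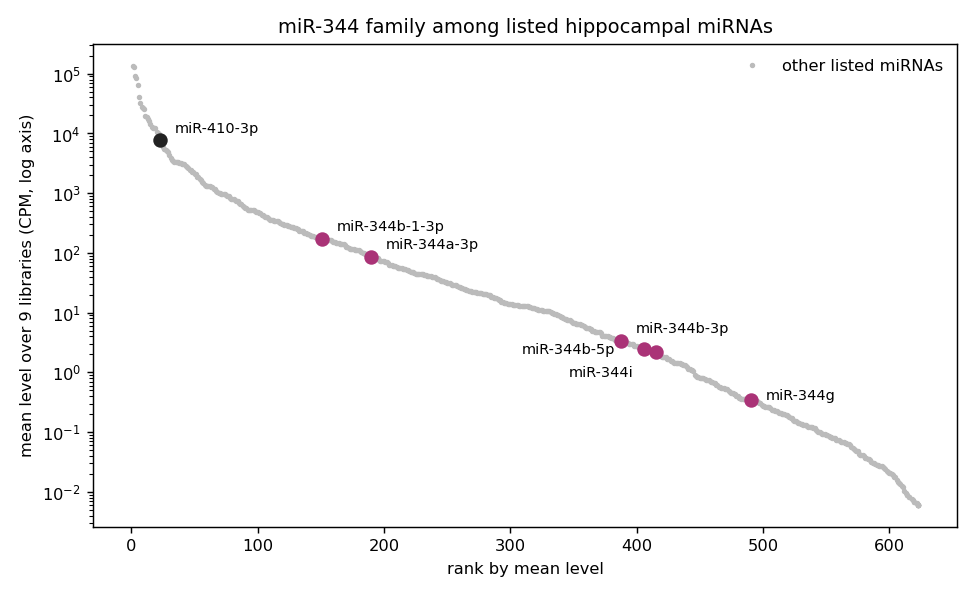
Mean level over 9 libraries (CPM, log axis) against rank for all listed miRNAs with a count, with the miR-344 family in purple and miR-410-3p in black. MiR-344b-1-3p and miR-344a-3p sit at ranks 151 and 190, and the other 4 members at rank 388 or lower, between 3.40 and 0.341 CPM.

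The members are 22 or 23 bases long, and a read covers a whole miRNA, so their levels were set side by side without a length term. Whether the libraries captured different sequences equally was not tested, so ratios between miRNAs are ratios of reads. MiR-344b-1-3p lay above miR-344a-3p in 9 of 9 libraries, and miR-344a-3p above miR-344b-3p in 9 of 9. MiR-344b-3p had more counts than miR-344b-5p in 7 libraries and equal counts in 2. MiR-344b-5p and miR-344i did not part, with 4 libraries each way and 1 tie. MiR-344g had fewer counts than miR-344i in 9 of 9 libraries.

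MiR-344b-1-3p, the most abundant member, has 1 hairpin, and miR-344b-3p, which differs from it by A2G, has 2. Counts of miR-344b-1-3p were nevertheless 34.3 to 79.5 times those of miR-344b-3p within a library, with a median of 54.8. The 3p side also outweighed the 5p side. Both miR-344b 3p forms together had 42.5 to 115 times the counts of miR-344b-5p, the form that all 3 miR-344b hairpins can give. The seed partner miR-410-3p stood at 7720 CPM on average, 44.5 times the level of miR-344b-1-3p. Reads with the shared seed were mostly those of miR-410-3p in these libraries.

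MiR-344a-3p, the member that the family was proposed for, was at 91.1, 120.3 and 97.5 CPM in VEH replicates 1, 2 and 3. It was at 95.5, 94.6 and 80.6 CPM in the MK-801 replicates, and at 68.4, 57.7 and 78.6 CPM in the MK-801+CLO replicates. These CPM rest on 615 to 1782 counts per library. All MK-801+CLO libraries lay below all others, while VEH and MK-801 overlapped. Of all tested miRNAs, 6.82% had the MK-801+CLO libraries below all MK-801 libraries and 11.5% below all VEH libraries. The share below both groups was not computed. Group means were 103 ± 15.4 CPM in VEH, 90.2 ± 8.34 CPM in MK-801 and 68.2 ± 10.5 CPM in MK-801+CLO (SD, n = 3 each).

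MiR-344b-1-3p was at 182, 224 and 173 CPM in VEH libraries, at 154, 167 and 158 CPM in MK-801, and at 120.6, 178 and 205 CPM in MK-801+CLO. The MK-801 libraries lay below all VEH libraries, and the MK-801+CLO libraries spanned nearly the whole range, with replicate 1 lowest of all 9. Its group means were 193 ± 27.2, 159.7 ± 6.58 and 168 ± 43.3 CPM (SD, n = 3 each), so that the coefficient of variation was 4.12% in MK-801 and 25.8% in MK-801+CLO.

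MiR-344b-3p, the seed variant from the 2 identical hairpins, was at 4.13, 3.65 and 2.90 CPM in VEH libraries, at 4.03, 4.87 and 2.88 CPM in MK-801, and 2.90, 2.63 and 2.58 CPM in MK-801+CLO. It rested on 28 to 83 counts per library, and the groups overlapped near 2.90 CPM. MiR-344i, the 3p member with the shifted seed, was at 2.34, 2.63 and 2.73 CPM in VEH libraries, at 2.35, 2.35 and 2.16 CPM in MK-801, and 1.02, 2.53 and 1.99 CPM in MK-801+CLO, on 13 to 50 counts. Its low value in MK-801+CLO replicate 1 stands alone, and the 3 groups overlapped.

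Of the 5p members, miR-344b-5p was at 1.62, 3.06 and 2.02 CPM in VEH libraries, at 2.22, 3.23 and 2.88 CPM in MK-801, and 2.90, 2.44 and 1.99 CPM in MK-801+CLO, on 26 to 55 counts. Its groups overlapped throughout, and its lowest library was VEH replicate 1. MiR-344g had 7, 6 and 7 counts in VEH, 2, 11 and 6 in MK-801, and 1, 3 and 3 in MK-801+CLO. Its CPM ran from 0.0784 to 0.646, too few counts for a test. MK-801+CLO replicate 1 was the lowest library for miR-344b-1-3p, miR-344i and miR-344g, and replicates 2 and 3 of that group for miR-344a-3p and miR-344b-3p.

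**Figure D2:**
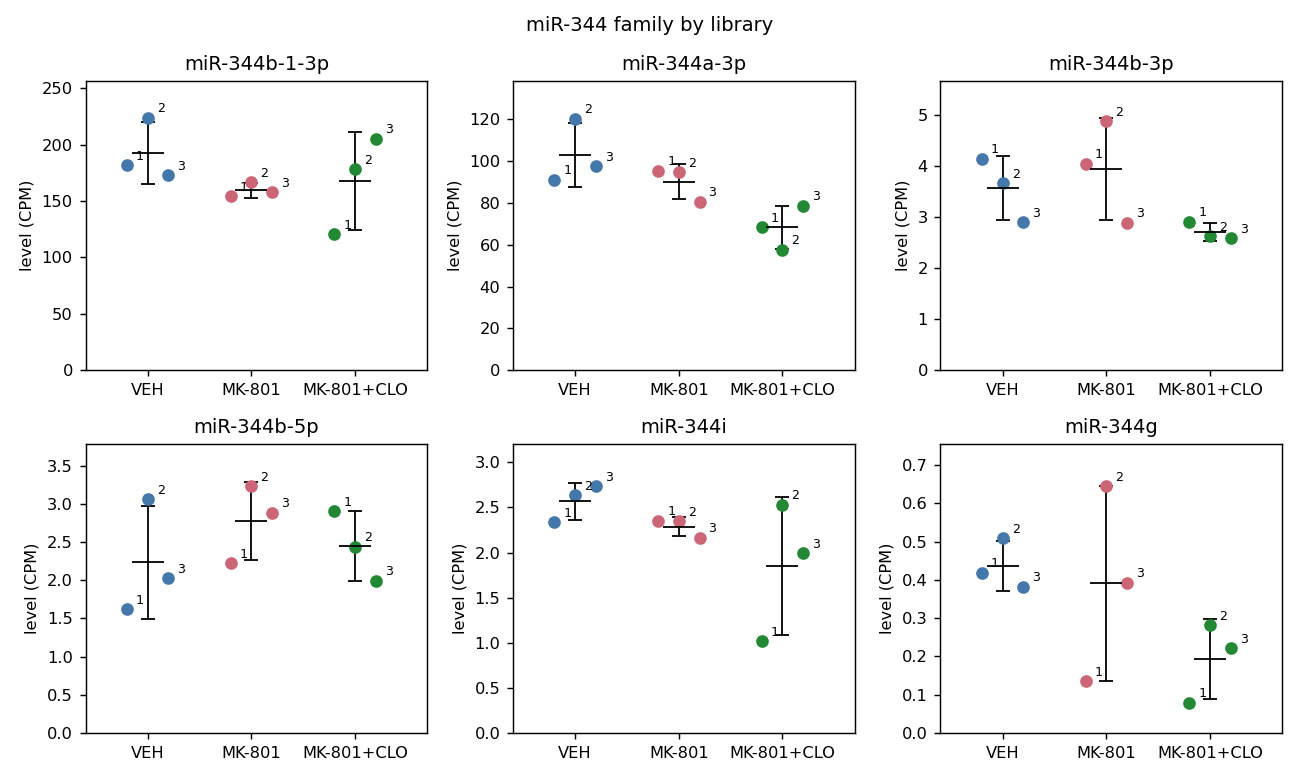
Level of each member in each library (CPM, linear axes from 0) for VEH, MK-801 and MK-801+CLO. Each point is 1 library with its replicate number beside it, and black bars are the mean ± SD (n = 3). For miR-344a-3p, picked for its lower level in MK-801+CLO than in VEH, the MK-801+CLO libraries lie below the other 6, at 57.7 to 78.6 CPM. For miR-344b-1-3p the MK-801+CLO libraries spread from 120.6 to 205 CPM.

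The comparison of MK-801 with VEH asks what repeated NMDA receptor blockade left in place 7 days after its end. The abundant members lay lower after MK-801 and the miR-344b minor forms higher, none past the test. The log2 fold change was -0.17 ± 0.15 for miR-344a-3p (edgeR adjusted p = 0.841) and -0.25 ± 0.19 for miR-344b-1-3p (edgeR adjusted p = 0.824), as value ± SE. The 95% intervals ran from -0.49 to 0.16 and from -0.67 to 0.17, so both include 0 and lie mostly below it. This comparison shares its VEH libraries with the one behind the choice of the family. The value of miR-344a-3p is thus not independent of that choice. MiR-344i was at -0.15 ± 0.29, miR-344b-3p at 0.16 ± 0.22 and miR-344b-5p at 0.36 ± 0.27, with adjusted p-values of 0.927, 0.884 and 0.824 in edgeR.

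In this comparison 0% of the 469 tested miRNAs passed an adjusted p of 0.05 in edgeR, 24 (5.12%) had an unadjusted p under 0.05, and 0 of these were members. DESeq2 called 1 and limma voom 0. Of the members 3 of 5 lay below 0, against 53.5% of all tested miRNAs, and their median was -0.15 against -0.018. MiR-344b-1-3p was the 1 tested member whose MK-801 and VEH libraries did not overlap, as the lower group, which holds for 7.89% of all tested miRNAs. VEH replicate 2, the highest library for both abundant members, carried much of the value for miR-344a-3p. Without it the log2 fold change was -0.046 for miR-344a-3p and -0.13 for miR-344b-1-3p, and without VEH replicate 3 it was -0.20 and -0.32. With upper-quartile factors it was -0.072 and -0.15, while the median of all miRNAs moved to 0.074. The minor members moved as much with 1 library left out. MiR-344b-3p ran from 0.017 without MK-801 replicate 2 to 0.32 without MK-801 replicate 3 and was 0.027 without VEH replicate 3, and miR-344b-5p from 0.16 without VEH replicate 1 to 0.62 without VEH replicate 2. The 24 miRNAs at an unadjusted p under 0.05 became 15 without VEH replicate 3 and 37 when MK-801 replicate 2 was left out.

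Clozapine after the MK-801 course was set against MK-801 alone to ask what the antipsychotic changed. MiR-344a-3p lay lower, at a log2 fold change of -0.36 ± 0.15, which is 0.779 times the MK-801 level, with a 95% interval of -0.69 to -0.034. Its unadjusted p was 0.0337, and it did not pass with an adjusted p of 0.526 in edgeR. The unadjusted p rose above 0.05 in 5 alternatives. In edgeR it was 0.0615 with a replicate block, 0.101 without MK-801 replicate 1 and 0.0637 when MK-801 replicate 2 was left out, and it was 0.0826 without MK-801+CLO replicate 1 and 0.123 without MK-801+CLO replicate 2. At its lowest it was 0.00574 with upper-quartile factors and 0.00647 without MK-801+CLO replicate 3 (edgeR adjusted p = 0.380 and 0.943). This comparison shares its MK-801+CLO libraries with the comparison behind the choice of the family, so it is not independent of that choice. MiR-344b-3p was at -0.50 ± 0.23 (edgeR adjusted p = 0.573), miR-344i at -0.28 ± 0.31 and miR-344b-5p at -0.15 ± 0.27, with adjusted p-values of 0.797 and 0.871 in edgeR. MiR-344b-1-3p was on the other side, at 0.12 ± 0.19 (edgeR adjusted p = 0.859).

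No tested miRNA passed here in edgeR (0% of 469), 39 had an unadjusted p under 0.05 (8.32%), DESeq2 called 2 and limma voom 0. The count of 39 fell to 23 without MK-801 replicate 1 and to 18 when MK-801+CLO replicate 3 was left out. Among tested miRNAs 3.62% had an unadjusted p under 0.05 and lay lower (17, against 22 higher), and of the 5 members miR-344a-3p did. This split depended on the scaling and the libraries, with 44 lower and 4 higher with upper-quartile factors, 20 lower and 15 higher with library totals, 30 lower without MK-801+CLO replicate 1 and 8 lower without MK-801+CLO replicate 3. MiR-344b-3p was also under an unadjusted 0.05 with upper-quartile factors, with library totals and with MK-801 replicate 3 left out, and miR-344b-1-3p, on the higher side at 0.33, with MK-801+CLO replicate 1 left out. None of these passed after adjustment. MiR-344a-3p was the 1 tested member whose libraries did not overlap between these groups, against 6.82% of all tested miRNAs with the clozapine group lower. The gap was narrow, from 78.6 CPM in MK-801+CLO replicate 3 to 80.6 CPM in MK-801 replicate 3. Of the members 4 of 5 lay below 0, against 51.2% of all tested miRNAs. With upper-quartile factors the median of all miRNAs moved from -0.0044 to -0.12, and miR-344a-3p was at -0.48, a similar distance from that median. The sign of miR-344b-1-3p turned to -0.059 without MK-801+CLO replicate 3, and that of miR-344i to 0.040 without MK-801+CLO replicate 1.

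MK-801+CLO against VEH, the full drug course against saline, is the comparison that the choice of the family rests on. The log2 fold change of miR-344a-3p was -0.53 ± 0.15, or 0.693 times the VEH level. Beside it miR-344i was at -0.42 ± 0.30, miR-344b-3p at -0.33 ± 0.23, miR-344b-1-3p at -0.13 ± 0.19 and miR-344b-5p at 0.21 ± 0.28. Of these 5 members 4 lay below 0, as did 49.9% of all tested miRNAs, and miR-344a-3p was the 1 member with groups that did not overlap, as were 11.5% of tested miRNAs with the clozapine group lower. The value of miR-344a-3p ran from -0.68 without MK-801+CLO replicate 3 to -0.41 without VEH replicate 2, and was -0.57 without VEH replicate 3. MiR-344b-1-3p went from -0.33 without MK-801+CLO replicate 3 to 0.081 without MK-801+CLO replicate 1 and was -0.012 without VEH replicate 2. MiR-344i went from -0.72 without MK-801+CLO replicate 2 to -0.10 without MK-801+CLO replicate 1, miR-344b-3p from -0.47 without VEH replicate 3 to -0.21 without VEH replicate 1, and miR-344b-5p from 0.018 without VEH replicate 1 to 0.48 without VEH replicate 2.

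**Figure D3:**
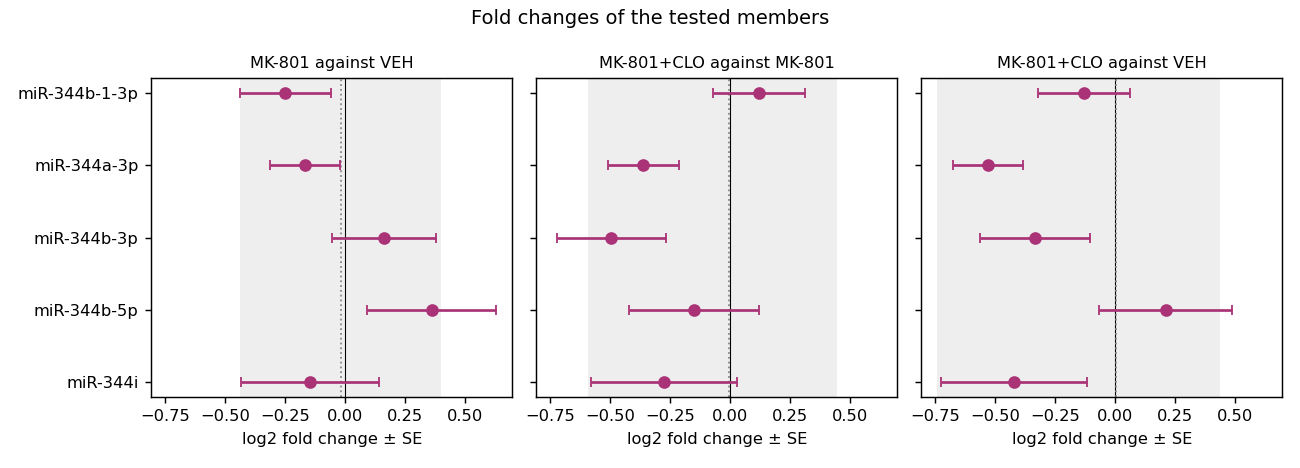
Log2 fold change ± SE (edgeR, 3 libraries a group) of the 5 tested members in the 3 comparisons, with the 5th to 95th percentile of all 469 tested miRNAs in grey and their median dotted. MiR-344a-3p lies below 0 in each panel (-0.17, -0.36 and -0.53), while miR-344b-1-3p changes sign between panels (-0.25, 0.12 and -0.13). No member passed the adjusted test in the first 2 panels. The last panel, behind the choice of the family, was not tested and shares libraries with each of the first 2.

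Other cell types and regions were read through marker miRNAs of choroid plexus and ependyma, oligodendrocytes, vessels, red blood cells, epithelium, and hypothalamus, pituitary and hindbrain. Markers of hypothalamus, pituitary and hindbrain (miR-375-3p, miR-7a-5p, miR-10a-5p and miR-10b-5p) summed to 411 to 844 CPM in VEH, 296 to 543 CPM in MK-801 and 228 to 337 CPM in MK-801+CLO. All 3 tested markers of that list lay lower in MK-801+CLO than in VEH, with a median log2 fold change of -0.94. Against MK-801, 2 of the 3 lay lower and 1 higher (median -0.64), with 1 of the lower at an unadjusted p under 0.05 (edgeR). Choroid plexus and ependymal markers summed to 3695 to 10427 CPM in VEH, 3465 to 4128 CPM in MK-801 and 2400 to 3648 CPM in MK-801+CLO. Against VEH, 4 of 5 lay lower in MK-801+CLO and 1 higher, with a median of -0.98. Against MK-801, 4 lay lower and 1 higher (median -0.48), with 1 on each side at an unadjusted p under 0.05 (edgeR). The other lists did not lie lower in MK-801+CLO than in VEH by their medians, at 0.28 for vessels, 0.085 for red blood cells, 0.24 for oligodendrocytes and 1.11 for epithelium. Against MK-801, all 3 vessel markers lay higher, 2 of them at an unadjusted p under 0.05 (edgeR), and summed to 20627 to 24648 CPM against 17886 to 18792 CPM. All 3 red blood cell markers lay higher too (median 0.21), as did both tested epithelial markers (median 1.95), of a list that summed to 2.67 CPM at most, while 2 of 3 oligodendrocyte markers lay lower (median -0.19). In MK-801 against VEH, all tested markers of choroid plexus and ependyma (median -0.37) and red blood cells (-0.18) lay lower. The same held for hypothalamus, pituitary and hindbrain (-0.27), vessels (-0.026) and epithelium (-0.85), while all 3 oligodendrocyte markers lay higher (0.42). Of these, 1 choroid plexus and ependymal and 1 red blood cell marker had an unadjusted p under 0.05 (edgeR). None of the markers in these lists was at 0 in all libraries, and their part in the values of miR-344a-3p was not tested. In tissue libraries, fewer cells that make a miRNA and less of it per cell cannot be told apart.

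Neuron-enriched miRNAs, a list of 15 abundant in forebrain neurons, lay on both sides of 0. In MK-801+CLO against MK-801, 9 of 15 lay higher and 6 lower, with a median of 0.11, and 0 passed an adjusted p of 0.05 in edgeR. In MK-801 against VEH, 7 of 15 lay higher and 8 lower, with a median of -0.0048. In MK-801+CLO against VEH, as a description, 10 of 15 lay higher and 5 lower, with a median of 0.12. Of the 5 neuronal markers 4 lay higher there and 1 lower, with a median of 0.22. MiR-410-3p, the seed partner of miR-344b-1-3p, was at 0.065 ± 0.16 in MK-801 against VEH (edgeR adjusted p = 0.942) and at -0.14 ± 0.16 in MK-801+CLO against MK-801 (edgeR adjusted p = 0.807).

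Ratios between members within a library need no scaling between libraries. The ratio of miR-344a-3p to miR-344b-1-3p was 0.501, 0.537 and 0.563 in VEH, 0.619, 0.566 and 0.510 in MK-801, and 0.567, 0.324 and 0.383 in MK-801+CLO. MK-801+CLO replicates 2 and 3 had the lowest ratios, and replicate 1 lay with the other groups. This ratio was picked after its values were seen and is a description.

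The ratio of miR-344b-3p to miR-344b-5p was 2.56, 1.19 and 1.43 in VEH, 1.82, 1.51 and 1.00 in MK-801, and 1.00, 1.08 and 1.30 in MK-801+CLO. It is not the arm ratio of 1 hairpin, since Mir344b-1 can give miR-344b-5p but not miR-344b-3p. The mean log2 ratio differed by -0.22 between MK-801 and VEH (exact two-sided permutation test, p = 0.7) and by -0.32 between MK-801+CLO and MK-801 (exact two-sided permutation test, p = 0.4). With 3 libraries a side this test cannot go below 0.1. The first difference turned to 0.098 without VEH replicate 1 and to 0.019 without MK-801 replicate 3. Both miR-344b 3p forms together over miR-344b-5p gave 115, 74.4 and 86.9 in VEH and 71.3, 53.2 and 55.8 in MK-801. In MK-801+CLO they gave 42.5, 74.2 and 104. The mean log2 of this ratio differed by -0.60 between MK-801 and VEH. Between MK-801+CLO and MK-801 it differed by 0.21, the opposite sign to that above. These differences were not tested.

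**Figure D4:**
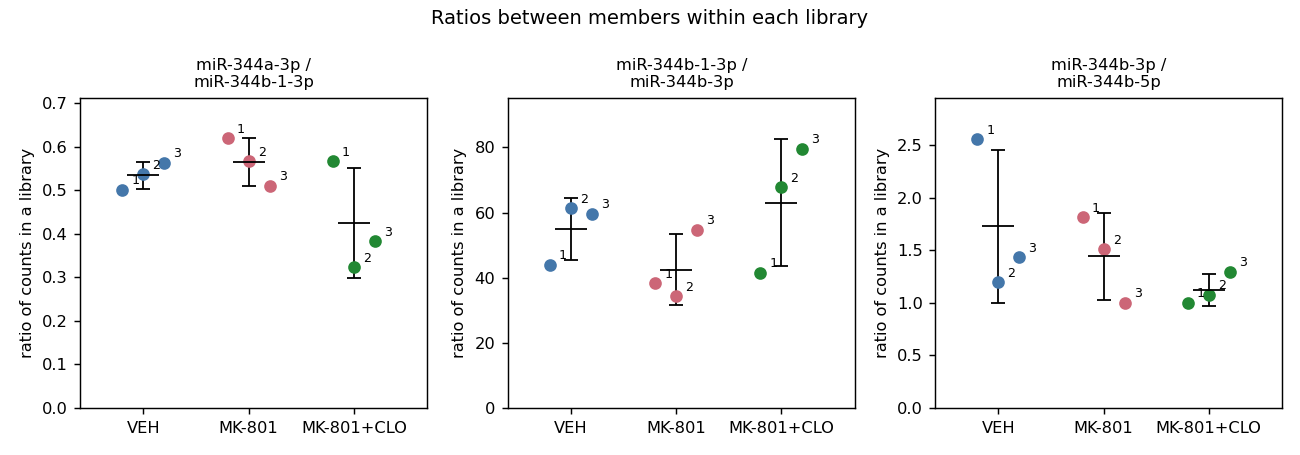
Ratios of counts between members within each library (linear axes from 0) for VEH, MK-801 and MK-801+CLO, with replicate numbers and the mean ± SD (n = 3) in black. The ratio of miR-344a-3p to miR-344b-1-3p is lowest in MK-801+CLO replicates 2 and 3 (0.324 and 0.383), and miR-344b-1-3p exceeds miR-344b-3p by 34.3 to 79.5 times throughout.

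The abundant members did not follow each other closely. Over 9 libraries log2(CPM + 1) of miR-344a-3p and miR-344b-1-3p gave Pearson's r = 0.439 (exact permutation p = 0.232, adjusted 0.319) and Spearman's rho = 0.217 (exact permutation p = 0.581, adjusted 0.581). After group means were subtracted r was 0.381 (exact permutation p = 0.319) and rho 0.400 (exact permutation p = 0.291), and these were the 2 relations computed. Without the 2 libraries farthest from the median, MK-801+CLO replicates 1 and 2, r was 0.394. A group alone has 3 libraries, too few for a value of its own.

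Among 331 tested miRNAs outside the family with a mean of at least 10 CPM, 92 had a higher r with miR-344a-3p than miR-344b-1-3p had. The 3 most like it over the 9 libraries were miR-31a-5p (r = 0.879), miR-7a-2-3p (r = 0.856) and miR-6331 (r = 0.828). These r are a ranking and carry no test, since they are the highest of 331 and the points share group differences and library composition. By rank correlation the same 3 stood at places 7, 1 and 3, and after subtracting group means at places 14, 55 and 74. MiR-7a-2-3p, the minor arm of a miR-7 hairpin, had means of 87.8 ± 16.3, 65.7 ± 17.0 and 50.7 ± 8.89 CPM in VEH, MK-801 and MK-801+CLO. MiR-31a-5p had 183 ± 44.3, 157 ± 31.9 and 129 ± 24.3 CPM in the same order (SD, n = 3 each).

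**Figure D5:**
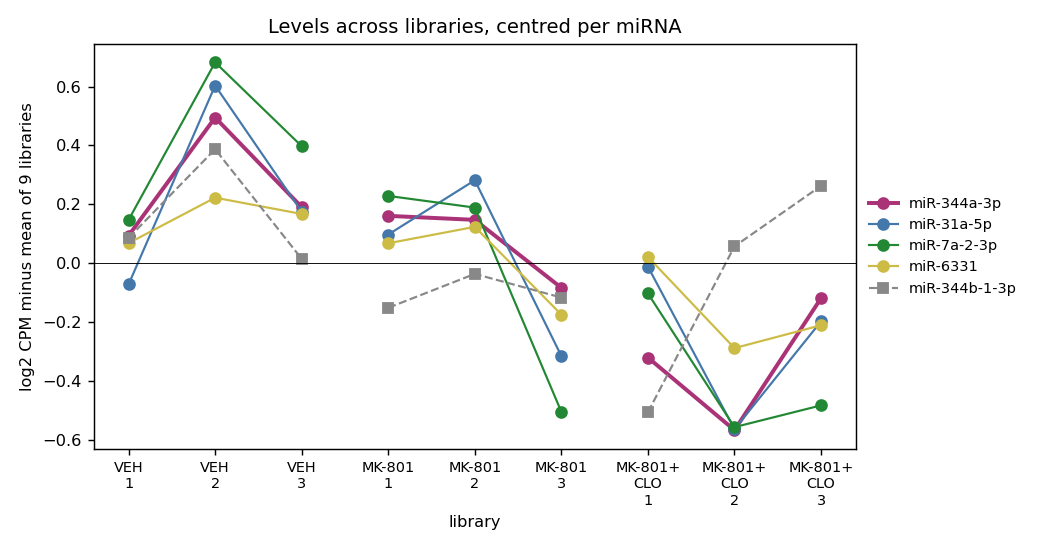
Log2 CPM minus the mean over 9 libraries for miR-344a-3p, the 3 miRNAs most like it and miR-344b-1-3p, by library; lines only join the points of a group, whose replicates have no order. MiR-31a-5p, miR-7a-2-3p and miR-6331 lie lowest with miR-344a-3p in MK-801+CLO replicate 2, where miR-344b-1-3p, at 178 CPM, lies above its own mean.

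Because reads could have been split between near-identical members, the members were also summed. The family sum was 281, 354 and 278 CPM in VEH libraries, at 258, 273 and 247 CPM in MK-801, and 196, 244 and 291 CPM in MK-801+CLO. The 3 groups overlapped only through MK-801+CLO replicate 3, which lay above VEH replicates 1 and 3. All MK-801 libraries lay below all VEH libraries, which holds for 7.89% of all tested miRNAs. MiR-344b-1-3p, with 64.1% of the family's counts, is among that share, so the sum adds no separate evidence. The log2 ratio of group means was -0.23 between MK-801 and VEH, -0.091 when clozapine was added to MK-801 and -0.32 for the full course against VEH, as a description without a test. The sum of both miR-344b 3p forms, which does not depend on how the A2G reads were assigned, was 196 ± 27.4 CPM in VEH, 164 ± 7.24 CPM in MK-801 and 171 ± 43.1 CPM in MK-801+CLO (SD, n = 3 each).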

How the data were processed

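Per the labels, RNA came from frozen hippocampus and the small RNA libraries followed standard Illumina methods. The tools named in the submitters' processing notes, without roles, are Bowtie, DESeq and cutadapt 1.14, with rat build Rnor_6.0. The authors deposited whole-number counts per mature miRNA and a second set of values headed TPM, which equal each count divided by the library total (largest relative difference 0.000473%) and are therefore CPM. The table held 21 blank lines and 1 name split over lines, which was rejoined. Groups and replicate numbers come from the sample titles.

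EdgeR 4.0.16 (R 4.3.3) was fitted to the whole table with filterByExpr, which kept 469 miRNAs, TMM scaling and glmQLFit and glmQLFTest on 1 mean per group. SE is the absolute log2 fold change over the square root of F, and intervals use the test's t distribution. The code was tested on simulated data. Alternatives were DESeq2 1.42.0, limma 3.58.1 voom, 3 other scalings, 2 other filters, each library left out, fits to the 6 libraries compared, and a replicate block. Exact tests used Python 3.11.15, with SciPy 1.17.1 for the ratio test, the ranks and the adjustment of correlation p-values. No 2 libraries of a group agreed within sampling noise (lowest chi-square 279 per degree of freedom). Every family row was named, with the 3 miRNAs most like miR-344a-3p. The members and lists were chosen with earlier results of these data known. Sequences are from the deposited table and RefSeq (GRCr8).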

Additional observations from a re-analysis of the deposited data

How the results depend on the processing

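No member passed or lost an adjusted threshold in any alternative for MK-801 against VEH or MK-801+CLO against MK-801, and the 5 tested members kept their direction there under every scaling, filter and tool run. The exceptions came from leaving out libraries. In MK-801+CLO against MK-801, miR-344b-1-3p turned to a log2 fold change of -0.059 without MK-801+CLO replicate 3 (range -0.059 to 0.33) and miR-344i to 0.040 without MK-801+CLO replicate 1 (range -0.55 to 0.040). Over the libraries left out, miR-344a-3p ran from -0.27 to -0.046 for MK-801 against VEH, from -0.50 to -0.26 when clozapine was set against MK-801 and from -0.68 to -0.41 when it was set against VEH. In the same order the difference in the log2 ratio of miR-344b-3p to miR-344b-5p ran from -0.45 to 0.098, from -0.57 to -0.14 and from -0.78 to -0.23. The first was above 0 also at 0.019 without MK-801 replicate 3. Likewise the log2 ratio of family sums ran from -0.29 to -0.11, from -0.24 to 0.044 and from -0.47 to -0.19. Restricted to 5p members, that sum was at 0.25 for MK-801 against VEH and -0.018 for MK-801+CLO against VEH. The cause of these changes was not tested. Counts of miRNAs past the adjusted threshold were 0 in edgeR and 1, 2 and 11 in DESeq2 for the comparisons in that order, and 0 to 1, 0 to 2 and 0 to 7 with a library left out. At a mean of 10 CPM or more, only miR-344a-3p and miR-344b-1-3p were tested. With the replicate number as a block, miR-344a-3p was at -0.17, -0.36 and -0.53, 0 miRNAs passed the adjusted threshold in each comparison, and no adjusted call changed. The unadjusted p of miR-344a-3p in MK-801+CLO against MK-801 went from 0.0337 to 0.0615 with the block (edgeR), and the miRNAs under 0.05 from 39 to 35. Deviations of same-numbered libraries correlated at -0.345 to 0.129, with 2 of 9 over 0.1, against -0.235 to 0.275 for other pairs. Of 9 libraries 1 correlated best with its own number. Deviations from means of 3 libraries cannot tell whether same-numbered libraries share more than a number. The 4 minor members rest on 1 to 83 counts per library, which limits what could be detected for them.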
